A study of Mus musculus with 12 samples.

Results

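Cultured mouse embryonic fibroblasts, the matrix-making cells of connective tissue, that were labelled knockout for MLL1 were compared with wild-type fibroblasts at 1 time, 30 h after a serum shock. The comparison holds 6 of the 12 arrays of the series, chosen by their titles: 3 titled MLL1-KO MEF CT30 and 3 titled WT MEF CT30. Both genotypes grew in DMEM that held 5% newborn calf serum and 5% fetal bovine serum, and both received 50% horse serum for 2 h, a pulse known to set the clocks of cells in a dish to the same phase. The other 6 arrays hold the same genotypes at 18 h and enter here through the shared estimate of the spread and the test of whether the knockout effect differed between the times. The labels give no allele, no Cre or transgene, no embryo age and no separate lines or cultures. P-values therefore reflect how far the arrays of a group scatter, possibly for technical reasons only, and genotype cannot be told apart from any other difference between the cultures.

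MLL1, encoded by Kmt2a, is a histone methyltransferase that places methyl groups on lysine 4 of histone H3 at promoters, in a complex with WDR5, RBBP5, ASH2L and menin. It is the mammalian relative of fly trithorax and is best known for keeping HOX genes switched on during development. It has also been described as a partner of the clock factors CLOCK and BMAL1. Fibroblasts carry a stable memory of their place in the body in their HOX and other positional genes, and they make most of the collagen and proteoglycan of connective tissue.

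Intensities are the authors' PLIER values on a linear scale, and a log2 fold change is knockout minus wild type of log2(intensity + 16), which understates changes of dim genes. A gene said to rise by, fall by or stand at a value has that log2 fold change. A gene passed the test where limma's adjusted p was below 0.05 over 13956 tested genes, and 5982 genes whose mean over the 12 arrays was below the intensity filter were not tested. A gene high in 1 genotype alone can be among the latter. At 30 h 52.9% of tested genes passed, 24.3% higher and 28.6% lower in knockout, and 11.0% passed with at least a 2-fold change, 4.78% higher and 6.21% lower. The wild-type and knockout arrays were fully separated in 61.5% of genes, and the median log2 fold change of all tested genes was 0.02. Counts of list members below are to be read beside these shares. Means are given ± SD over the 3 arrays of a group, log2 fold changes ± SE from the fit, and all adjusted p-values are limma's with Benjamini-Hochberg adjustment.

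The 6 arrays had median intensities of 273.3 to 303.0. Across tested genes the correlation was 0.987 to 0.996 between arrays of 1 genotype and 0.808 to 0.831 between genotypes. The labelled cell type was checked against fibroblast markers. Vim, the intermediate filament of mesenchymal cells, read 17008, 17274 and 16512 in the wild-type arrays and 15251, 15724 and 15165 in the knockout arrays, and Col1a1, the chain of type I collagen, read 6171, 6710.1 and 6292 in the wild-type arrays and 7524, 8964 and 8365 in the knockout arrays. Of 15 tested fibroblast markers 4 were higher and 10 lower in knockout, and their summed intensity was 98854 to 104001 in wild type and 77730.2 to 82098 in knockout. The X-inactivation RNA Xist read 1473 to 1818 in wild type and 1956 to 2151 in knockout, and the Y-linked gene Uty was too dim to test in both genotypes, at 38.2 to 49.6 over the 6 arrays. Xist and the Y-linked gene Kdm5d were tested and passed as higher in knockout, with log2 fold changes of 0.33 and 0.34. Neither call was stable. That of Xist ended without wild-type replicate 1 of 30 h (0.24), and that of Kdm5d without knockout replicate 3 of 30 h (0.19).

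**Figure D1:**
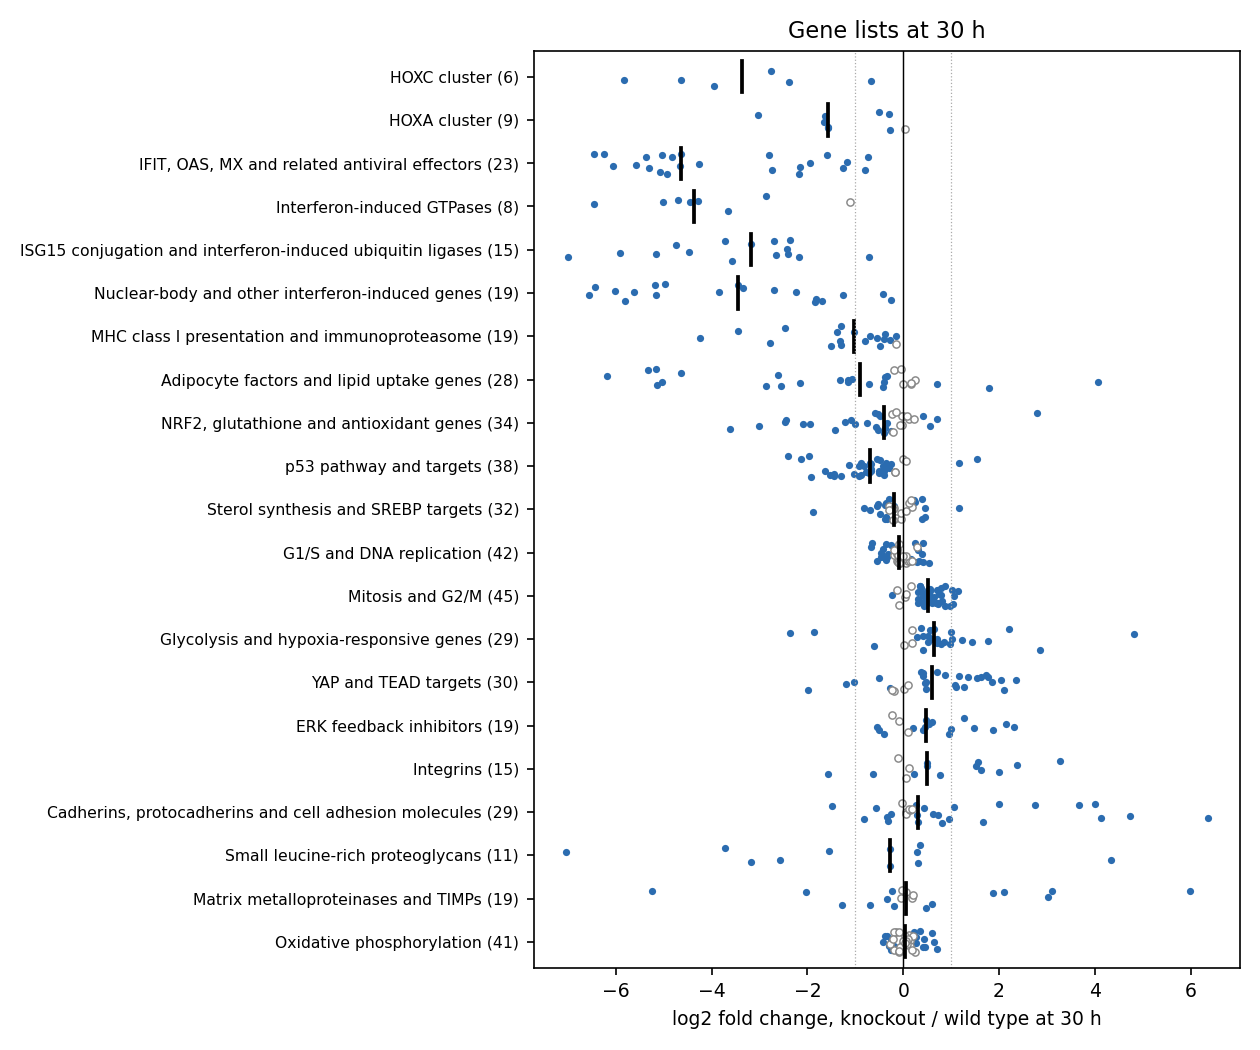
Log2 fold changes at 30 h (x axis, knockout over wild type) of the tested members of 21 gene lists (y axis, number tested in brackets). Filled points passed the test, open points did not, black bars are list medians and dotted lines mark a 2-fold change. The HOXC list, with a median of -3.36, lies almost wholly to the left. So do the interferon lists, with medians from -4.64 for antiviral effectors to -3.19 for ISG15 conjugation and ubiquitin ligases. The mitosis list is shifted by 0.53 with little spread.

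Kmt2a, the targeted gene, read 2129, 2155 and 2069 in the wild-type arrays and 1338, 1367 and 1584 in the knockout arrays. All 3 knockout arrays lay below all 3 wild-type arrays, with a log2 fold change of -0.57 ± 0.10 (adjusted p = 0.000111), and at 18 h the value was -0.19 and did not pass (adjusted p = 0.108). The difference of the effects, 30 h minus 18 h, was -0.38 ± 0.14 (adjusted p = 0.0653). Neither the deleted part of the gene nor the place of the probes in it is known here, and the level is therefore no check of the label. Of 21 tested H3K4 methyltransferases and shared subunits, 5 were higher, 7 lower and none changed 2-fold. Men1, which encodes the MLL1 partner menin, rose from 1317 ± 60.1 to 2058 ± 134 (log2 0.64 ± 0.08). Hcfc2, a host cell factor subunit, fell by 0.79 on the log2 scale, and the methyltransferase Kmt2c fell by 0.53. Of 12 members of the DOT1L and elongation complexes that join MLL1 in leukaemia fusions, 2 were higher and 5 lower, led by Mllt1 at 0.85 ± 0.09 and Aff1 at -0.74 ± 0.07. Polycomb complexes, which place the opposing repressive marks, had 8 of 24 genes higher and 9 lower, with Phf19 at 0.64 ± 0.11, Suz12 at 0.44 ± 0.07, Phf1 at -0.72 ± 0.09 and Bmi1 at -0.67 ± 0.09. No gene of these 3 lists passed with a 2-fold change.

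HOX genes encode homeodomain factors that specify position along the body, and in 3 of the 4 clusters most tested members were lower in knockout. All 6 tested HOXC genes fell, 5 of them at least 2-fold, with a list median of -3.36. Hoxc8, a trunk gene of the cluster, read 4198, 4593 and 3785 in the wild-type arrays and 53.5, 42.0 and 82.5 in the knockout arrays, a log2 fold change of -5.83 ± 0.17 (adjusted p = 1.8e-14). All 3 knockout arrays were near the dim end of the scale and the groups did not overlap. Hoxc10 read 1312, 1421 and 1237 in the wild-type arrays and 31.1, 43.2 and 38.9 in the knockout arrays (log2 -4.64 ± 0.10). Hoxc9 read 2132, 2448 and 2209.8 in the wild-type arrays and 146, 110.1 and 140.5 in the knockout arrays (log2 -3.95 ± 0.11). Both genes were far lower in every knockout array. Hoxc6 fell by 2.76, Hoxc5 fell by 2.37 and Hoxc4, at the other end of the cluster, fell by 0.68. Hoxc13 missed the filter on its mean over the 12 arrays and was not tested, with 484, 547 and 556 in the wild-type arrays and 31.3, 29.7 and 56.1 in the knockout arrays, lower in every knockout array.

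Of 9 HOXA genes 8 fell, 5 of them 2-fold. Hoxa10 had the largest fall, with 692, 741 and 709 in the wild-type arrays and 107, 51.6 and 70.9 in the knockout arrays (log2 -3.02 ± 0.15, adjusted p = 2.18e-11). Hoxa6, Hoxa5, Hoxa9 and Hoxa3 lay close together at -1.66, -1.63, -1.58 and -1.58, whereas Hoxa2 was at -0.51 and Hoxa13 at 0.05 (adjusted p = 0.743). The calls of Hoxa4 (-0.29) and Hoxa7 (-0.28) were the weakest. That of Hoxa4 ended without wild-type replicate 1 or 2 or knockout replicate 2 of 30 h, at -0.27, -0.27 and -0.27. That of Hoxa7 ended without wild-type replicate 2 or knockout replicate 3 of 30 h, at -0.24 and -0.22. Neither passed under quantile scaling, and Hoxa7 did not pass under cyclic loess scaling (-0.23).

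Of 9 HOXB genes 6 fell and 1 rose. Hoxb6 read 719, 851 and 725 in the wild-type arrays and 36.9, 59.5 and 66.8 in the knockout arrays (log2 -3.49 ± 0.18). Its neighbour Hoxb5 read 823, 1000.2 and 813 in the wild-type arrays and 69.9, 83.5 and 83.8 in the knockout arrays (log2 -3.23 ± 0.12). The groups of both genes lay about an order of magnitude apart. Hoxb3 fell by 1.49, Hoxb9 fell by 0.94, Hoxb7 fell by 0.67 and Hoxb4 fell by 0.55. Hoxb2 rose by 0.28, a call that ended without knockout replicate 1 of 30 h (0.22, adjusted p = 0.0526). The end genes Hoxb1 and Hoxb13 were at -0.01 and 0.16 and did not pass (adjusted p = 0.959 and 0.289). The HOXD cluster differed in its counts: of 4 tested genes none was lower, Hoxd9 was higher with 254, 275 and 249 in the wild-type arrays and 515, 421 and 421 in the knockout arrays (log2 0.76 ± 0.10), and Hoxd1, Hoxd3 and Hoxd13 were at -0.01, -0.04 and 0.09 (adjusted p = 0.979, 0.786 and 0.435). A further 5 HOXD genes were not tested because their mean over the 12 arrays missed the filter. Among them Hoxd8, the neighbour of Hoxd9, read 48.0, 64.3 and 26.0 in the wild-type arrays and 539, 576 and 521 in the knockout arrays, higher in every knockout array, and the other 4 had group means between 129 and 197. Of the MEIS and PBX cofactors, which bind DNA with HOX proteins, 2 of 8 were higher and 4 lower, none by 2-fold.

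**Figure D2:**
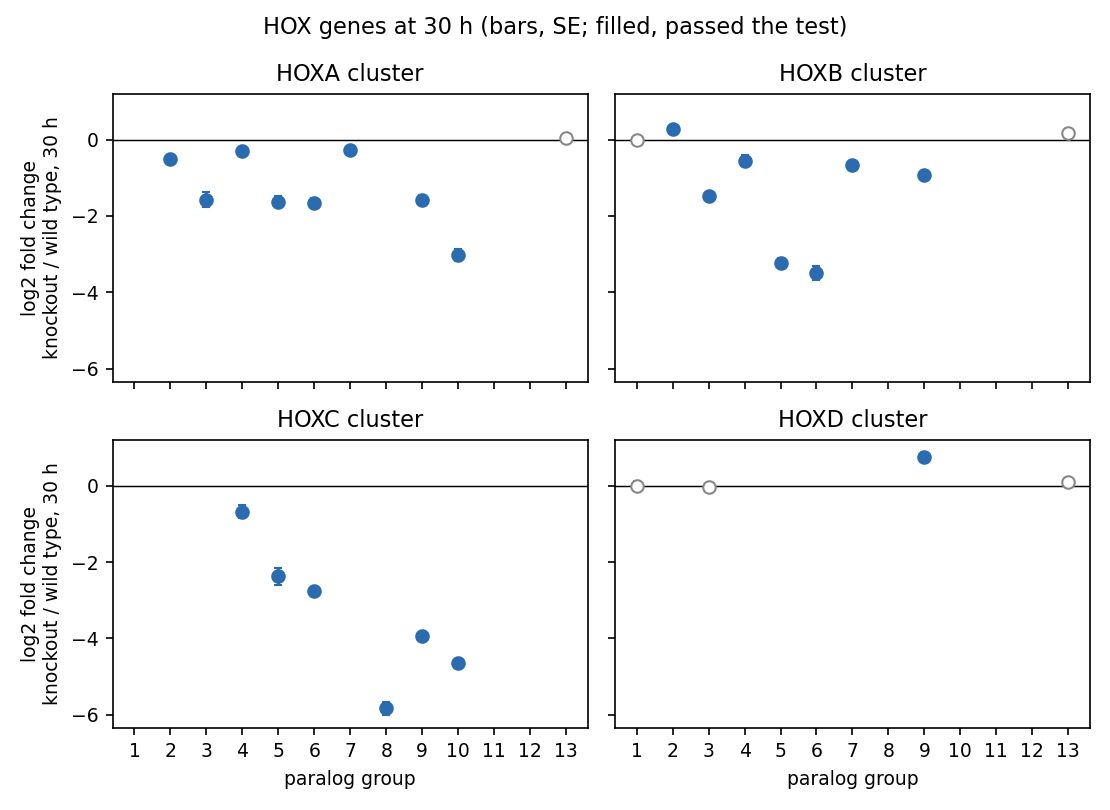
Log2 fold change at 30 h (y axis, bars SE) of each tested HOX gene against its paralog group number (x axis), 1 panel per cluster. Filled points passed the test; the HOXC genes lie between -0.68 and -5.83, and Hoxd9 is the filled point above zero in the HOXD panel.

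Other positional and mesenchymal transcription factors changed in both directions, 13 of 48 higher and 19 lower. Osr1, a zinc-finger factor of intermediate mesoderm, read 279, 256 and 286 in the wild-type arrays and 2801, 3145 and 2965 in the knockout arrays (log2 3.37 ± 0.10), and every knockout array was above every wild-type array. Zic2, a neural and midline factor, rose from 152 ± 26.2 to 1396 ± 64.9, and Foxf1, a forkhead factor of gut and lung mesenchyme, from 561 ± 36.1 to 3539 ± 118. Pax9, of pharyngeal pouches and sclerotome, fell from 1437 ± 104 to 139.8 ± 24.1 (log2 -3.23 ± 0.11). Foxc1, a forkhead factor of somites and eye mesenchyme, fell by 3.01, Tbx18, a T-box factor of somites and ureter mesenchyme, fell by 2.83, and the homeobox gene Irx3 fell by 2.44.

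Interferon-induced genes, the antiviral programme that cells switch on through interferon receptors, were high in the wild-type cells and low in the knockout cells. Of 23 tested antiviral effectors all 23 were lower, 21 of them at least 2-fold, with a list median of -4.64. Ifit3, an IFIT family antiviral protein, read 11838, 12477 and 11207 in the wild-type arrays and 142, 124 and 155 in the knockout arrays (log2 -6.25 ± 0.11, adjusted p = 8.26e-17). The wild-type arrays were among bright genes and all knockout arrays were dim, with no overlap. Oas2, a sensor enzyme that activates RNase L, read 6093, 6717 and 5831 in the wild-type arrays and 64.4, 65.0 and 107 in the knockout arrays (log2 -6.07 ± 0.14). Oasl2, its ubiquitin-like relative, read 8561, 8949.9 and 7845 in the wild-type arrays and 176, 128 and 188 in the knockout arrays (log2 -5.57 ± 0.20). The groups did not overlap for either gene. Slfn9, a Schlafen family gene, fell by 6.46. Mx1, an antiviral GTPase, missed the filter on its mean and was not tested, with 734 ± 80.4 in wild type and 15.8 ± 4.19 in knockout.

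**Figure D3:**
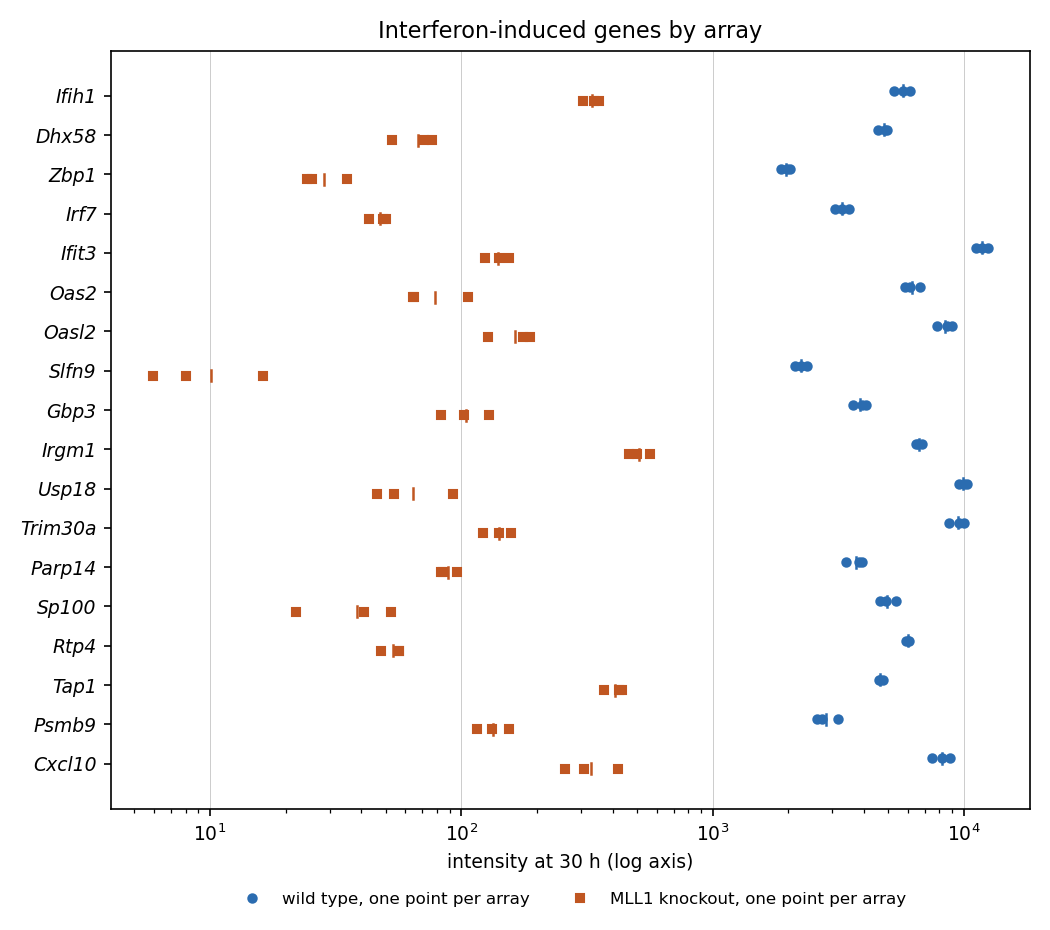
Intensity at 30 h (x axis, log scale) of 18 interferon-induced genes (y axis) in each array. Circles are wild-type arrays, squares are knockout arrays and short lines are the group means; for every gene shown the 3 knockout points lie left of the 3 wild-type points, as for Ifit3 at 142, 124 and 155 against 11838, 12477 and 11207.

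The same direction ran through the other arms of the programme. Of 15 genes of ISG15 conjugation and interferon-induced ubiquitin ligases 15 were lower, 14 by 2-fold. Usp18, the protease that removes ISG15, read 10271, 9998 and 9562 in the wild-type arrays and 53.8, 46.2 and 93.0 in the knockout arrays (log2 -7.00 ± 0.15). Its 3 knockout arrays were all dim. Trim30a, a tripartite-motif ligase, fell by 5.92, Parp14, a mono-ADP-ribosyltransferase, fell by 5.17 and Dtx3l, its ligase partner, fell by 4.74. Of 19 nuclear-body and further interferon-induced genes 19 were lower, among them the nuclear-body scaffold Sp100 (from 4966 ± 359 to 38.6 ± 15.4), Rtp4 (from 5969.6 ± 78.7 to 53.7 ± 5.15) and the secreted glycoprotein Lgals3bp (from 14163 ± 810.4 to 237 ± 14.1). Of 8 interferon-induced GTPases, which attack the vacuoles of intracellular parasites, 7 fell. Iigp1 fell by 6.45, Gbp3 fell by 5.02, Gbp11 fell by 4.69, Gbp9 fell by 4.44, Gbp7 fell by 4.29, Irgm1 fell by 3.66 and Gbp4 fell by 2.86. Gbp8 read 936, 897 and 806 in the wild-type arrays and 319, 422 and 471 in the knockout arrays and did not pass (log2 -1.11 ± 0.64, adjusted p = 0.165), but it passed without knockout replicate 1 of 18 h, an array outside the comparison that enters the estimate of the spread (adjusted p = 2.84e-06).

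Sensors and transcription factors of the pathway were lower as well, 22 of 30 with 14 by 2-fold, and 2 were higher. Dhx58, an RNA helicase of the RIG-I family, read 4954, 4875 and 4565 in the wild-type arrays and 52.9, 71.4 and 76.8 in the knockout arrays (log2 -5.87 ± 0.10). Irf7, the factor that amplifies the type I interferon response, read 3083, 3503 and 3262 in the wild-type arrays and 48.6, 43.1 and 50.4 in the knockout arrays (log2 -5.70 ± 0.13). Every knockout array was far below every wild-type array for both genes. Zbp1, a sensor of Z-form nucleic acid, fell by 5.49. Ifih1, which encodes the RNA sensor MDA5, fell by 4.04. The members that rose were the kinase Jak2, from 2197 ± 28.6 to 3771 ± 231, and Irf5, by 0.68.

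Antigen presentation followed in smaller steps. Of 19 tested genes of MHC class I presentation and the immunoproteasome 18 were lower, 10 by 2-fold, with a median of -1.02. The immunoproteasome subunit Psmb9 read 2722, 2600.0 and 3154 in the wild-type arrays and 155, 133 and 116 in the knockout arrays (log2 -4.24 ± 0.12), and the peptide transporters Tap1 and Tap2 fell, with log2 fold changes of -3.46 and -2.46. The class I gene H2-T10 fell by 2.78, and class I genes are close relatives whose probes may share signal. B2m, the light chain of class I molecules, read 16292, 16661 and 15529 in the wild-type arrays and 12693, 12649 and 12081 in the knockout arrays, a log2 fold change of -0.37 ± 0.05.

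The promoters of several of these genes hold the sequence that the interferon-activated factor ISGF3 recognises, and 8 are shown because their genes carry the interferon result at 30 h. The core motif, GAAA, any 2 bases and GAAA again, was searched on both strands in the 250 bases before each RefSeq gene start (GRCm38.p6), overlapping matches included, and capitals mark it or its reverse complement in stretches of 100 bases, 5′ to 3′ on the strand of the gene.
Ifit1, chr19:34640759-34640858, strand +: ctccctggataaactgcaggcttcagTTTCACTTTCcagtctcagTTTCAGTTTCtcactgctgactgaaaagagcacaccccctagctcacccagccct
Ifit3, chr19:34583362-34583461, strand +: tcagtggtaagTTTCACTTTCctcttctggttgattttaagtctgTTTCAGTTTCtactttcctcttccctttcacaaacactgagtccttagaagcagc
Oas1a, chr5:120907526-120907625, strand -: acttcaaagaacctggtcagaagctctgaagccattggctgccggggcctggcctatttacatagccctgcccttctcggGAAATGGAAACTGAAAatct
Rsad2, chr12:26456518-26456617, strand -: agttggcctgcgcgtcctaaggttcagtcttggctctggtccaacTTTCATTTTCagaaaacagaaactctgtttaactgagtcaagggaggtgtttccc
Gbp3, chr3:142559944-142560043, strand +: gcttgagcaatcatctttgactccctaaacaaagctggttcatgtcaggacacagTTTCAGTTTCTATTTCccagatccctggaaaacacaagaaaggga
Irgm1, chr11:48871421-48871520, strand -: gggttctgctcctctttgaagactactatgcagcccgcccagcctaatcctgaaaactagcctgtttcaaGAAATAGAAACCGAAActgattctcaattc
Cxcl10, chr5:92349040-92349139, strand -: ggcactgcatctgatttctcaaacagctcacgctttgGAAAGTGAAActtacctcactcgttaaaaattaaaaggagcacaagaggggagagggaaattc
Stat2, chr10:128270248-128270347, strand +: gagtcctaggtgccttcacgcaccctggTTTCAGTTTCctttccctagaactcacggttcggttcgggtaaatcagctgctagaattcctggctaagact
The motif stood in 3.46% of all 27025 genes in the promoter table. Among antiviral effectors with a promoter in the table it stood in 11 of 22 and among the interferon-induced GTPases in 4 of 4. It stood in 4 of 27 sensors and factors and in 1 of 11 ISG15 and ubiquitin ligase genes. Nuclear-body and other interferon-induced genes held it in 3 of 16 cases and MHC class I genes in 1 of 13. High shares were not limited to interferon lists: cytosolic ribosomal protein genes, of which 0 were lower in knockout, held it in 5 of 18 cases. Among the 11062 tested genes with a promoter in the table, 8.27% of those at least 2-fold lower in knockout held it (56 of 677). The share was 3.58% of those at least 2-fold higher (18 of 503) and 2.65% of those that did not pass. These are descriptions of the letters in this window, not of binding. Of the genes shown whose values are not given elsewhere, Ifit1 fell by 5.38, Oas1a fell by 4.64, Rsad2, the antiviral enzyme viperin, fell by 4.94, and Stat2, a subunit of ISGF3, fell by 3.62.

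Secreted immune signals split. Of 18 tested chemokines 9 were lower and 3 higher. Cxcl10, an interferon-induced attractant of T cells, read 8208, 8805 and 7471 in the wild-type arrays and 419, 259 and 307 in the knockout arrays (log2 -4.59 ± 0.14). The groups did not overlap. Its relatives Cxcl9 and Cxcl11 fell, with log2 fold changes of -3.49 and -3.64, and Ccl9 fell from 7096 ± 153 to 443 ± 16.6. Ppbp, a neutrophil attractant, rose from 147 ± 13.6 to 710.3 ± 154, and the scavenger receptor Ackr3 rose by 1.27. Among interleukins and inflammatory mediators 9 of 32 were higher and 17 lower. The interleukin 1 antagonist Il1rn fell by 6.55, the haptoglobin gene Hp fell by 5.69 and complement C4b fell by 4.33, while Saa3, an acute-phase protein, fell by 2.82. Il13ra1, a subunit of the receptor for interleukins 4 and 13, read 33.1, 45.8 and 33.9 in the wild-type arrays and 1148, 1249.9 and 1182 in the knockout arrays (log2 4.50 ± 0.16), higher in every knockout array. Tnfaip3, a brake on NF-kB, rose by 1.35, the cytokine Lif by 1.27 and Ptgs2, the inducible prostaglandin synthase, by 0.96. In the TNF superfamily Tnfrsf9 rose by 2.56, while Tnfrsf21 fell by 2.95 and the death receptor Fas fell by 1.63.

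Cd53, a tetraspanin usually found on leukocytes, fell along with the interferon genes, with 5314, 5806 and 5587 in the wild-type arrays and 912, 850.5 and 772 in the knockout arrays (log2 -2.70 ± 0.09). Of 8 tested macrophage and blood markers it was the one that fell, Cd14 rose by 0.66 and 6 did not pass. The summed intensity of the 14 measured markers was 8265 to 8671 in wild type and 3694 to 3915 in knockout. This sum includes Cd53, whose own fall was about as large as that of the sum. The defining leukocyte gene Ptprc was too dim to test, with 168, 136 and 148 in the wild-type arrays and 130.5, 135 and 173 in the knockout arrays. The part of blood cells in the result was not tested. In bulk RNA, fewer cells of a type and less RNA per cell cannot be told apart.

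Extracellular matrix genes changed in both directions. Of 31 tested collagens 9 were higher and 8 lower, close to the shares of all genes, but the 3 chains of collagen VI, which forms beaded filaments around cells, stood together. Col6a1 read 10955, 11275 and 10649 in the wild-type arrays and 604, 715 and 692 in the knockout arrays (log2 -4.00 ± 0.07). Col6a2 read 10064, 10464 and 9907 in the wild-type arrays and 287, 342 and 432 in the knockout arrays (log2 -4.80 ± 0.12). Col6a3 read 8113, 8696 and 8265 in the wild-type arrays and 289, 430.3 and 488 in the knockout arrays (log2 -4.35 ± 0.14). Each chain was bright in all wild-type arrays and far lower in every knockout array. Col3a1, of fibrillar type III collagen, fell from 2804 ± 185 to 602 ± 91.2 (log2 -2.20 ± 0.11), while Col1a1 rose by 0.37 and Col8a1 by 1.12.

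Small leucine-rich proteoglycans, which coat collagen fibrils, had 4 of 11 genes higher and 7 lower. At least 2-fold changes were 1 rise, that of Dcn, and 5 falls. Aspn, which encodes asporin, read 4951, 5868 and 4247 in the wild-type arrays and 10.4, 22.4 and 37.6 in the knockout arrays (log2 -7.04 ± 0.19, adjusted p = 6.74e-15), the lowest log2 fold change of the named genes. Dcn, which encodes decorin, went the other way with 236, 247 and 319.7 in the wild-type arrays and 6045, 5415 and 5525 in the knockout arrays (log2 4.33 ± 0.13). The groups did not overlap for either gene. Prelp fell from 4948 ± 302 to 366 ± 72.7, Omd fell by 3.18, Ogn, which encodes osteoglycin, fell by 2.57 and Fmod, which encodes fibromodulin, fell by 1.55. Bgn, which encodes biglycan, fell by 0.29, from 13426 ± 426 to 11009 ± 405. The calls of Optc and Nyx, both higher, ended without knockout replicate 3 of 30 h, at 0.20 and 0.23. That of Podn, which was lower, ended without knockout replicate 2 of 30 h, at -0.24. Aspn, Omd and Ogn are neighbours on 1 chromosome, and all of them fell.

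**Figure D4:**
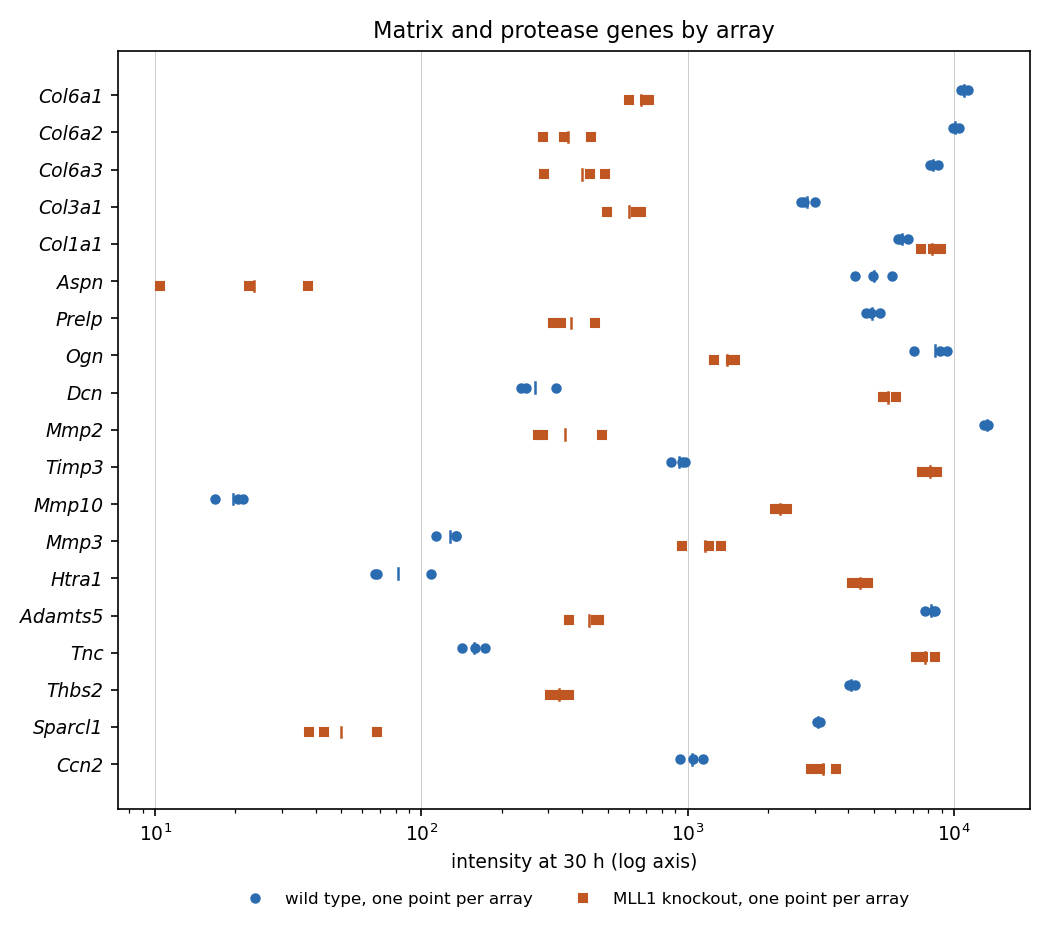
Intensity at 30 h (x axis, log scale) of 19 matrix and protease genes (y axis) in each array. Circles are wild-type arrays, squares are knockout arrays and short lines are the group means; collagen VI, Aspn and Mmp2 lie to the left in knockout, and Dcn, Timp3, Mmp10 and Tnc to the right.

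Matrix proteases and their inhibitors changed in both directions. Mmp2, gelatinase A, read 13478, 13335 and 13032 in the wild-type arrays and 286, 273 and 478 in the knockout arrays (log2 -5.24 ± 0.15). Mmp10, stromelysin 2, read 21.4, 20.4 and 16.8 in the wild-type arrays and 2364, 2192 and 2131 in the knockout arrays (log2 5.98 ± 0.13). Its relative Mmp3 rose from 128 ± 12.2 to 1162 ± 195. Every knockout array of the stromelysins was above every wild-type array, and the reverse held for Mmp2. Timp3, a matrix-bound inhibitor, rose from 932 ± 56.9 to 8112 ± 554 (log2 3.10 ± 0.08). In the list 7 of 19 metalloproteinases and inhibitors were higher and 7 lower. Among ADAMTS, HTRA and plasminogen genes 8 of 23 were higher and 11 lower. Htra1, a secreted serine protease, read 66.9, 68.2 and 109 in the wild-type arrays and 4749, 4486 and 4139 in the knockout arrays (log2 5.55 ± 0.18), while the aggrecanase Adamts5 fell from 8219.6 ± 374 to 425 ± 59.2 and Adam23 from 4753 ± 249 to 65.0 ± 5.17. The lysosomal protease Ctsc read 29.5, 16.4 and 29.3 in the wild-type arrays and 2533, 2521 and 2524 in the knockout arrays (log2 5.97 ± 0.14), and 14 of 24 cathepsins and lysosomal hydrolases were lower, with Ctsh at -2.02 and Ctso at -1.98.

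Glycoproteins that modulate adhesion moved both ways, 11 of 35 higher and 14 lower. Tnc, which encodes tenascin C of developing and wounded tissue, read 142, 159 and 174 in the wild-type arrays and 7228, 8517 and 7659.6 in the knockout arrays (log2 5.49 ± 0.12). Every knockout array was far above every wild-type array. Sparcl1 read 3142, 3101 and 3058 in the wild-type arrays and 37.9, 43.0 and 68.2 in the knockout arrays (log2 -5.60 ± 0.17) and Thbs2, an antiangiogenic thrombospondin, fell from 4123 ± 117 to 329.8 ± 26.5. Mgp, a vitamin K-dependent inhibitor of calcification, read 7729, 7906 and 8243 in the wild-type arrays and 29.4, 50.6 and 129 in the knockout arrays (log2 -6.71 ± 0.27). Its knockout arrays differed among themselves and all were far below wild type. Efemp1, a fibulin, fell by 3.78, whereas Fbln1 rose by 1.48. The collagen hydroxylase P4ha3 rose by 3.49 and the crosslinker Tgm2 by 3.37, while the procollagen enhancer Pcolce2 fell by 2.50 and Loxl3, a lysyl oxidase, fell by 1.89.

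Cell-surface adhesion genes leaned upwards. Of 15 tested integrins 10 were higher, 6 by 2-fold, and 2 lower. The laminin receptor subunit Itga3 read 384, 424 and 385 in the wild-type arrays and 4107, 4169.9 and 3717 in the knockout arrays (log2 3.28 ± 0.07), Itgb8 rose by 2.37 and Itga7 by 2.01, while Itgb3 fell by 1.57. Of 29 cadherins and other adhesion molecules 17 were higher, 9 by 2-fold. Nrcam, a neuronal adhesion molecule, read 34.4, 38.4 and 35.6 in the wild-type arrays and 3745, 4635 and 4427 in the knockout arrays (log2 6.36 ± 0.10). Cadm1 rose from 62.9 ± 6.67 to 2096 ± 99.9, Pcdh18 from 116 ± 6.25 to 2296 ± 135, Pcdh9 from 42.1 ± 0.84 to 916 ± 112 and Ncam1 from 251 ± 50.8 to 3383 ± 411. The groups of these genes lay far apart. Among guidance genes 18 of 40 were higher and 12 lower. The plexin Plxna4, the semaphorin Sema7a and the ephrin Efnb2 rose by 3.10, 3.02 and 2.55, and Epha7 and Sema3e fell, with log2 fold changes of -4.66 and -2.80.

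The largest rise of all named genes was that of Cyfip2, a regulator of actin assembly, with 79.7, 79.6 and 74.3 in the wild-type arrays and 10003, 10072 and 10315 in the knockout arrays (log2 6.76 ± 0.07, adjusted p = 3.12e-19). Nes, an intermediate filament of progenitor cells, read 35.6, 56.3 and 40.4 in the wild-type arrays and 3167, 3664 and 3381 in the knockout arrays (log2 5.84 ± 0.13). Map2, a microtubule protein of dendrites, read 19.8, 22.2 and 19.9 in the wild-type arrays and 1130.0, 1514 and 1453 in the knockout arrays (log2 5.23 ± 0.11). These genes were dim in all wild-type arrays. Of 7 tested neural markers 3 rose, Nes, Map2 and Tubb3, none fell, and 4, Sox2, Sox10, S100b and Mbp, did not pass, at 0.16, 0.07, 0.04 and -0.05. Dcx, Gfap, Snap25 and Syt1 were too dim to test. Nes and Map2 reached the intensity filter only through the knockout arrays, so they could enter the count only as rises. The summed intensity of the 11 measured neural markers was 2192 to 2722 in wild type and 7429 to 8349 in knockout. Most of this rise was that of Nes (means 44.1 and 3404) and Map2 (means 20.6 and 1366), and it is not a rise of the markers in general. Tnnt2, the cardiac troponin T gene, rose from 85.8 ± 3.71 to 1974 ± 86.2, with 3 of 8 muscle markers higher and 1 lower. The cartilage factor Sox9 rose from 557 ± 15.7 to 2325 ± 3.29. It was the only marker of cartilage and bone that passed, while 3 of the 4 tested did not pass and 5 were too dim to test. Trp63, a factor of stratified epithelia, read 1622, 1755 and 1709 in the wild-type arrays and 32.3, 33.5 and 167 in the knockout arrays, while the other 9 tested epithelial markers did not pass. Of 7 tested pericyte and smooth muscle markers 4 were lower, 1 was higher and 2 did not pass, and 5 more were too dim to test. Angpt1, the ligand of the endothelial receptor TIE2, was at -6.34 and Cspg4 at -2.75. Des was at -0.36, a call that ended under quantile scaling (-0.26). The part of other cell types in these results was not tested.

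Further genes among the 15 largest rises were the acyltransferase Mboat2 at 5.65, the virus and adhesion receptor Cxadr at 5.56, the hormone Stc1 at 5.38, the steroid dehydrogenase Akr1c18 at 5.18, the choline transporter Slc5a7 at 5.03, the mitochondrial gene Mgarp at 5.02 and the transcription factor Runx3 at 4.99. Runx3 read 28.4, 19.9 and 26.3 in the wild-type arrays and 1192, 1373 and 1282 in the knockout arrays. Its groups lay far apart. Among the 15 largest falls, Cyp2f2, a xenobiotic-metabolising cytochrome, fell by 6.71, and Ifit3b, a close copy of Ifit3 whose probes may share signal with it, fell by 6.09.

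Growth factor and developmental signals changed at the level of ligands, receptors and inhibitors. Rspo2, a secreted amplifier of WNT signals, read 4319, 4777 and 4627 in the wild-type arrays and 38.6, 26.5 and 43.1 in the knockout arrays (log2 -6.47 ± 0.15), and the WNT antagonist Sfrp2 fell from 1859 ± 138 to 91.9 ± 14.1. Axin2, a common WNT target and feedback inhibitor, read 72.4, 52.7 and 53.3 in the wild-type arrays and 929, 1012 and 961 in the knockout arrays (log2 3.71 ± 0.14). The knockout arrays were low for the amplifier and high for the target gene. In the WNT list 13 of 39 genes were higher and 11 lower. The platelet-derived growth factor receptors Pdgfra and Pdgfrb fell from 3297 ± 115 to 419 ± 22.2 and from 3148 ± 172 to 863 ± 51.2, while the ligand Pdgfb rose from 73.9 ± 16.3 to 1297 ± 70.9. Flt1, a receptor for VEGF, rose by 3.34, Hbegf by 2.05 and Gdnf by 2.24, and Hgf and Vegfd fell, with log2 fold changes of -2.85 and -2.57. In the TGF-beta and BMP list 17 of 45 were higher and 16 lower, with the activin subunit Inhba at 2.62, Tgfb2 at 1.72 and the co-receptor Tgfbr3 at -1.65. Igf2bp3, an RNA-binding protein of embryonic cells, fell from 1756 ± 66.7 to 79.6 ± 8.64.

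Genes driven by YAP and TEAD, factors that respond to cell spreading and tension, were more often higher, 21 of 30 against 5 lower, and 13 were higher by 2-fold. Tead4, a TEAD factor itself, read 118, 119 and 113 in the wild-type arrays and 678, 658 and 647 in the knockout arrays (log2 2.35 ± 0.10), Ankrd1 rose from 1236 ± 76.5 to 5119.6 ± 434 and Ccn2 by 1.61. Nt5e and Ptpn14 of the same list fell, with log2 fold changes of -2.00 and -1.19. Of 19 ERK feedback inhibitors and targets 13 were higher and 3 lower, with the phosphatases Dusp5 at 2.31 and Dusp4 at 1.47 the factor Etv4 at 2.14 and the inhibitor Spry1 at -0.55. Of 27 immediate-early genes 10 were higher, 4 lower and 13 did not pass, median 0.02. Ier3 rose by 2.46, Nr4a1 by 1.84 and Jun by 1.16, while Atf3 fell by 0.95 and Btg1 fell by 0.53. The contractile list had 11 of 26 higher and 4 lower, with Tpm1 at 1.22 and Mylk, the myosin light chain kinase, at -0.71.

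The cell cycle lists separated. Of 45 genes of mitosis and G2/M 39 were higher and 1 lower, with a median of 0.53, but only 4 reached 2-fold. Ttk, a spindle checkpoint kinase, read 649, 788 and 729.5 in the wild-type arrays and 1505, 1673 and 1647 in the knockout arrays (log2 1.14 ± 0.12). Bub1, another checkpoint kinase, read 3031, 3110.5 and 2595 in the wild-type arrays and 5488, 6129 and 6179.7 in the knockout arrays (log2 1.02 ± 0.08). The groups did not overlap. Among 42 G1/S and replication genes 9 were higher and 13 lower, median -0.10, with the helicase subunit Mcm6 at -0.67, the cyclin Ccne1 at -0.64, the origin subunit Orc1 at 0.54 and the kinase Chek1 at 0.42. Inhibitors of cyclin-dependent kinases and the retinoblastoma family had 10 of 16 lower. Cdkn2b, which encodes p15, read 1448, 1471 and 1452 in the wild-type arrays and 172, 138 and 133 in the knockout arrays (log2 -3.18 ± 0.11). Its neighbour Cdkn2a read 616, 619 and 703 in the wild-type arrays and 260.2, 240.0 and 221 in the knockout arrays (log2 -1.37 ± 0.11). Mtap, beside them on the chromosome, rose by 0.64. Rb1 fell by 1.06, Cdkn2c fell by 1.33, and the cyclin Ccnd1 rose by 0.81. Of 38 genes of the p53 pathway 32 were lower, 11 by 2-fold, against 2 higher. Trp53inp1, an inducer of cell death and autophagy, fell from 8389.9 ± 338 to 1572 ± 179, Perp fell by 1.96 and the receptor Eda2r fell by 1.92, while Trp53i11 rose by 1.53.

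Glycolytic genes were more often higher. Of 29 glycolysis and hypoxia-responsive genes 23 were higher, 7 by 2-fold, and 3 lower, median 0.65. Slc16a3, which exports lactate, read 89.3, 62.9 and 81.0 in the wild-type arrays and 2666, 2723 and 2454 in the knockout arrays (log2 4.82 ± 0.15). The phosphofructokinase Pfkp rose from 1012 ± 77.4 to 4748 ± 419 and hexokinase Hk2 by 1.77, and Egln3, an oxygen-sensing hydroxylase, rose by 2.86. Pfkfb3 and the peptide gene Adm of the same list fell, with log2 fold changes of -2.36 and -1.86. Of 41 genes of oxidative phosphorylation 10 were higher, 8 lower and none 2-fold, and the balance of these small changes depended on the scaling.

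Adipocyte and lipid uptake genes were lower in 19 of 28 cases, 14 by 2-fold. Cd36, a fatty acid transporter, read 2896, 3154 and 2960.5 in the wild-type arrays and 16.1, 29.2 and 33.3 in the knockout arrays (log2 -6.18 ± 0.14). Fabp4, the fatty acid carrier of adipocytes, read 2408, 2580.3 and 2386 in the wild-type arrays and 65.6, 55.2 and 43.3 in the knockout arrays (log2 -5.14 ± 0.16). Adipoq, which encodes adiponectin, read 1253, 1318 and 1331 in the wild-type arrays and 7.87, 52.7 and 14.8 in the knockout arrays (log2 -5.15 ± 0.33). The wild-type arrays held these adipocyte messages at measurable levels and all knockout arrays were dim. The summed intensity of the adipocyte and lipid uptake list was 45299.9 to 47083 in wild type and 18356 to 19382 in knockout, and the part of adipocytes in the cultures was not tested. Agt, the angiotensin precursor, fell by 5.33, whereas Vldlr rose from 207 ± 24.9 to 3723 ± 412. Genes of glutathione and antioxidant defence had 20 of 34 lower, 10 by 2-fold, with the glutathione transferases Gstt1 at -3.61, Gstt3 at -3.01 and Gstm2 at -2.44, and the metallothionein Mt2 rose from 1674 ± 191 to 11643 ± 512. Retinaldehyde dehydrogenase Aldh1a1 fell by 3.87 and its relative Aldh1a7 fell by 4.54, and related gene copies can share probe signal. The small heat shock proteins diverged, Hspb1 rising from 605 ± 46.1 to 3095 ± 525 and Hspb8 falling from 2284 ± 39.4 to 69.8 ± 18.0.

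Few clock genes changed 2-fold. Of 25 core clock and output genes 9 were higher and 8 lower, and 1 reached 2-fold. At 18 h 11 were higher and 9 lower. By the test of the difference, the knockout effect was higher at 30 h than at 18 h for 9 of the 25 and lower for 5. Over all tested genes these shares were 10.2% and 10.1%. When single arrays were left out the first count stayed at 9 and the second ran from 3 to 6. Bhlhe40, a repressor of the E-box clock loop, read 636, 736 and 661 in the wild-type arrays and 2717, 2913 and 2709 in the knockout arrays (log2 2.01 ± 0.08), with every knockout array above every wild-type array. Arntl2, a relative of BMAL1, fell by 0.88, Timeless fell by 0.85 and the output factor Tef fell by 0.57, while the repressors Ciart and Nfil3 rose by 0.91 and 0.66.

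The knockout effect at 30 h was then set beside that at 18 h, measured on separate arrays. At 18 h 60.1% of genes passed. The difference of the effects, 30 h minus 18 h, passed for 20.3% of genes, 10.2% higher and 10.1% lower. Knockout replicate 1 of 18 h stood apart from the other arrays of its group, and without it 4145 genes passed instead of 2838. The interferon lists had almost the same counts at both times. At 18 h 23 of 23 antiviral effectors, 15 of 15 ISG15 and ligase genes and 6 of 6 HOXC genes were lower, and the HOXC median was -4.48. The difference was positive, a smaller fall at 30 h, for 4 of 6 HOXC genes and 4 of 9 HOXA genes, led by Hoxc5 with -4.11 at 18 h and -2.37 at 30 h.

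DNA replication genes had mostly negative differences between the times. Of 42 G1/S genes 27 were higher and 4 lower at 18 h, and the difference was negative in 25, or 27 without knockout replicate 1 of 18 h, while it was positive in none with that array and in 2 without it. The lowest negative count with a single array left out was 21, without knockout replicate 3 of 30 h. Mcm6 was at -0.25 at 18 h and -0.67 at 30 h (difference -0.42 ± 0.09, adjusted p = 0.00465), and Slbp, the histone message binding protein, was at 0.26 and -0.55 (difference -0.81 ± 0.14). Of 45 mitotic genes 43 were higher at 18 h and the difference was negative in 6, a count that became 13 without that array and 3 without wild-type replicate 3 of 18 h. Sterol synthesis genes had 16 of 32 higher and 6 lower at 18 h but 7 higher and 13 lower at 30 h, and 18 had a negative difference and 3 a positive one (19 and 5 without knockout replicate 1 of 18 h). When single arrays were left out these counts ran from 15 to 19 and from 0 to 5. Hmgcs1, an early enzyme of cholesterol synthesis, was at -0.04 and -0.70, and Lss, lanosterol synthase, at 0.39 and -0.54.

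Some stress genes changed sign or size between the times. Txnip, which binds thioredoxin and limits glucose uptake, read 6116, 5817 and 6494 in the wild-type arrays and 778, 697 and 635 in the knockout arrays at 30 h (log2 -3.10 ± 0.21) and had a log2 fold change of -0.42 at 18 h, a difference of -2.68 ± 0.30 (adjusted p = 5.22e-05). Its relative Arrdc4, an arrestin-domain gene, was at 0.38 at 18 h and -1.26 at 30 h (difference -1.64 ± 0.27). Both were lower in every knockout array at 30 h. In the unfolded protein and ATF4 list 13 of 30 genes had a negative difference and 1 a positive one (18 and 2 without knockout replicate 1 of 18 h). When single arrays were left out the negative count ran from 11 to 18. Ddit3 and Atf3 of this list, factors of the stress response, were at 0.06 and 0.84 at 18 h and at -1.69 and -0.95 at 30 h. Gadd45a, a DNA damage gene, was at 0.93 and -1.45. Heat shock chaperones leaned the other way. Of 19 tested, 7 were higher and 7 lower at 18 h, and 11 were higher and 3 lower at 30 h. The difference was positive in 5 of them and negative in 1. The smooth muscle actin Acta2 was at 1.81 at 18 h and 0.18 at 30 h, where it did not pass (adjusted p = 0.274).

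The promoter of Txnip holds a pair of CACGNG boxes, the form bound by MondoA and its partner MLX, and is shown because Txnip was among the 8 largest negative differences. A pair of CACGNG boxes with 5 bases between them was searched as above and stood in 14 of 27025 genes.
Txnip, chr3:96557830-96557929, strand +: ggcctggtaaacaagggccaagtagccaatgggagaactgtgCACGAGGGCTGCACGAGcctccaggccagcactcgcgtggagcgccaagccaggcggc
Capitals mark the pair. The promoter of Arrdc4 did not hold these letters in the window searched.

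Genes of some chromosomes shared small shifts. RefSeq placed 13941 tested genes on chromosomes. On chromosome 16 47.1% of 435 genes were lower and 9.89% higher, with a median log2 fold change of -0.19, and chromosome 10 had a median of -0.13. On chromosome 9 42.1% of 788 were higher and 13.6% lower, with a median of 0.17, chromosome 18 had 0.17, with 42.5% of 334 higher and 18.3% lower, and chromosome 7 had 0.15. The medians of the other chromosomes lay between -0.11 and 0.11. Set against the wild-type mean, the 3 knockout arrays had medians of -0.23 to -0.20 on chromosome 16 and 0.14 to 0.24 on chromosome 9, and the wild-type arrays lay between -0.03 and 0.02 on both. At 18 h the medians were -0.24 for chromosome 16 and 0.12 for chromosome 9. The share of genes changed at least 2-fold was 12.9% and 9.9%, beside 11.0% of all genes. These chromosomes were singled out after their values were seen.

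**Figure D5:**
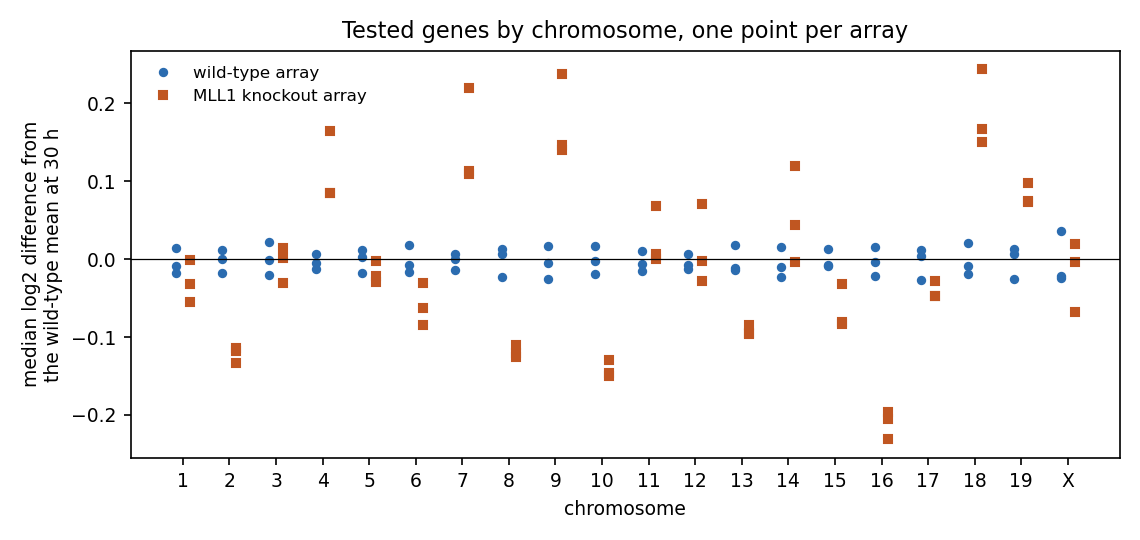
Median over the tested genes of each chromosome (x axis) of the log2 difference from the wild-type mean at 30 h (y axis), 1 point per array. The wild-type circles lie near zero by construction, and the knockout squares lie below them on chromosome 16 (-0.23 to -0.20) and above them on chromosome 9 (0.14 to 0.24).

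The runs of neighbouring genes with the lowest medians held members of gene families. Among all runs of 7 adjacent tested genes, the lowest median log2 fold changes were -4.27 for the run from Ddx54 to Oas1a, which holds Oas2, Oas3, Oas1b and Oas1a, -4.24 for the run around Aim2 and the Ifi200 genes, -3.02 for the run of Trim34a, Trim12a, Trim12c and Trim30 genes, and -2.76 for the run from Atp5g2 to Hoxc6. The genes of the first run that are not of the OAS family, Ddx54, Rasal1 and Dtx1, had log2 fold changes of 0.32, 0.14 and 0.10, of which that of Ddx54 passed. Runs with high medians were less extreme, the highest at 1.42.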

How the data were processed

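RNA of 12 Affymetrix arrays was compared, 3 per group, with groups taken from the sample labels. The authors deposited 1 linear intensity for each probe set, and the submitters' processing notes name Affymetrix Expression Console 1.1 and PLIER 2.0. How arrays were normalized to each other: not given in the sources used here. Of 35557 probe sets 21789 had 1 gene symbol, 1621 several and 12147 none listed, and 21698 were matched to RefSeq names (GRCm38.p6). A gene's probe set of highest mean was used (19938 genes). Genes whose mean reached the 30th percentile of all genes (log2 7.58) were tested, as log2(intensity + 16).

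A limma 3.58.1 model (R 4.3.3) gave each of the 4 groups its mean, with all 12 arrays in it (lmFit, eBayes with a trend, 8 residual and 7.98 prior degrees of freedom), and adjusted p-values are two-sided. The members, gene lists and tests were chosen with earlier results of these data known. Genes named are Kmt2a, the 15 largest rises and falls whose arrays did not overlap (predicted genes passed over), up to 4 rises and 4 falls of each list, every tested gene of lists of up to 12, and the 8 largest differences between the times each way. Ifit1, Oas1a, Rsad2, Stat2, B2m, Ptprc, Hoxd8, Hoxc13, Mx1, Ddx54, Rasal1 and Dtx1 were added after their values were seen. Alternatives were offsets of 1 and 64, no filter or one at the 50th percentile, 3 scalings, no trend, array weights, the 30 h arrays alone, the mean of all probe sets, a block for the replicate number, and leaving out single arrays. In simulated data for 13956 genes 100 of 100 genes changed by 1 on the log2 scale were recovered, and 81 of 100 changed by 0.5, with 7 false calls. The simulated noise was normal and independent between genes, and few genes were changed, whereas 52.9% passed in the data. The number of false calls therefore does not carry over to the data.

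The number of arrays limits the precision.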

Additional observations from a re-analysis of the deposited data

Results flagged for a closer look

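For 16 genes the knockout effect at 30 h differed from that at 18 h by the test of the difference itself, limma's contrast of the 2 effects, and these are the 8 largest differences in each direction. Values are log2 fold changes, knockout over wild type, and a difference is 30 h minus 18 h. The prolactin family gene Prl2c5 was at -4.69 at 18 h and -2.48 at 30 h, a difference of 2.21 ± 0.20 (adjusted p = 8.03e-06). It belongs to a family of close copies whose probes may share signal. Spag1 had a difference of 1.96 ± 0.27 and at 30 h was at -0.27 and did not pass. The interferon-induced gene Samd9l had 1.93 ± 0.36, with a fall at both times. The chemokines Ppbp and Cxcl5 had 1.85 ± 0.22 and 1.66 ± 0.32, and Cxcl5 was at 0.46 at 30 h (adjusted p = 0.0977). Gpr149 had 1.78 ± 0.16, Macc1 1.76 ± 0.28 and the HOX gene Hoxc5 1.74 ± 0.32.

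Tnfsf18, a ligand of the TNF family, rose at both times, by 5.19 at 18 h and 1.57 at 30 h, a difference of -3.61 ± 0.34 (adjusted p = 1.05e-05). Txnip had -2.68 ± 0.30, the protease inhibitor Serpinb1a -2.41 ± 0.16, Gadd45a -2.38 ± 0.26 and the GABA-B receptor subunit Kctd16 -1.94 ± 0.37. The glycolytic enzyme Aldoc had -1.87 ± 0.16, Ccn2, a YAP target, -1.86 ± 0.21 and the nitric oxide synthase Nos2 -1.83 ± 0.15, which was higher in knockout at 18 h (1.24) and lower at 30 h (-0.60). Without knockout replicate 1 of 18 h, which stood apart from its group, all 16 differences kept their direction and passed, with Tnfsf18 at -4.02, Txnip at -3.09 and Hoxc5 at 2.10. This is a weak check. The genes were chosen as the largest differences, and leaving out that array raised the number of all genes that passed from 2838 to 4145. Without knockout replicate 2 of 18 h that number was 1895, and values of the 16 genes in that setting are not given here.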

How the results depend on the processing

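The number of genes that passed at 30 h ran from 6178 with a filter at the 50th percentile to 9016 with array weights, beside 7382 as reported, and from 6551 to 7802 when single arrays were left out. Requiring a 2-fold change in addition left 1534. Quantile scaling raised the share of higher calls from 45.9% to 52.7%. Array weights raised the number of differences between the times from 2838 to 5844, and leaving out single arrays gave 1895 to 4145, the lowest without knockout replicate 2 and the highest without knockout replicate 1 of 18 h. With the replicate number as a block 7251 genes passed at 30 h and 2725 for the difference, though the numbers only name the arrays: same-numbered arrays of the genotypes deviated with correlations of -0.25, 0.34 and -0.46. The median of all genes was 0.02 as deposited, 0.04 under quantile scaling and 0.01 under cyclic loess scaling.

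Among named genes 10378 of 10515 alternative values kept their direction and their side of the threshold, 110 lost the call, 12 gained one and 15 changed sign, all of the last in genes that did not pass. Most named genes were chosen for large changes, and leaving out an array of 18 h cannot alter a log2 fold change at 30 h. The first count is therefore high in part by construction and does not describe all genes. Hoxa13 was at -0.010 under quantile scaling and -0.014 under cyclic loess scaling. When single arrays were left out the log2 fold change ran from -0.014 to 0.16 for Hoxa13, -0.10 to 0.046 for Hoxb1, -0.064 to 0.11 for Hoxd1, -0.13 to 0.044 for Hoxd3, -0.018 to 0.18 for Sox10, -0.032 to 0.13 for S100b and -0.11 to 0.010 for Mbp. The causes of the lost calls were not tested. The chromosome medians, an alternative chosen after seeing the data, kept their sign in every setting run, from -0.27 to -0.13 on chromosome 16, -0.22 to -0.09 on chromosome 10, 0.10 to 0.21 on chromosome 7, 0.14 to 0.23 on chromosome 9 and 0.15 to 0.23 on chromosome 18. Signal over background limits dim genes: the lowest intensities have no reliable order, and the size of a fall to that end of the scale is uncertain.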

Other observations

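Imprinted genes, which are expressed mainly from the allele of 1 parent, changed in both directions at 30 h, 3 of 20 higher and 8 lower. Peg3, a zinc-finger gene of the paternal allele, rose from 315 ± 19.7 to 1171 ± 97.7 (log2 1.84 ± 0.15). Peg10, derived from a retrotransposon, fell from 11002 ± 1475 to 2444 ± 223 (log2 -2.16 ± 0.10), and Ndn, which encodes necdin, fell from 1581 ± 95.4 to 339 ± 84.2 (log2 -2.19 ± 0.13). Igf2r, the maternally expressed receptor that clears IGF2, fell by 0.84. These values say nothing about which allele was read.

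Of 15 replication-dependent histone genes 2 were higher and 5 lower, median -0.13. H2bc4 fell from 8340.2 ± 631 to 1772 ± 233 (log2 -2.23 ± 0.10), and the linker histone genes H1f2 and H1f3 fell by 1.99 and 1.76, whereas H1f1 rose by 1.04. Histone genes are close copies whose probes may share signal. Of 23 cytosolic ribosomal protein genes 9 were higher, 0 lower and 14 did not pass, median 0.18, with small changes whose count depended on the scaling. Of 20 insulin-like growth factor and binding protein genes 9 were higher and 7 lower, of 15 serpins 4 and 6, and of 17 elastic fibre genes 6 and 4.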
